A study of Mus musculus with 30 samples.

Results

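The 6 mouse genes described here, *Pdzrn3*, *Vnn3*, *Vnn1*, *Steap4*, *Slc39a4* and *Tnip3*, were chosen by their strong rise under an exacerbation cocktail (EC) in lung organoid cultures. They are 6 of the 55487 genes counted in each library. EC against vehicle is the contrast they were selected on, so their values in that contrast are a description, without a test. Tests are given for other comparisons, which involve the other cocktail and TGF-β. Those between the other cocktail and TGF-β, or between the cell fractions under each, use no library of that contrast. Those with vehicle share its vehicle libraries.

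All cultures held primary CD31-CD45-Epcam+ lung cells of adult wild-type C57BL/6J mice together with CCL206 cells, a single mouse lung fibroblast line that mitomycin C had kept from dividing. They were exposed for 72 hours to vehicle, to EC (TNFα, IL-1β, IL-6 and IL-8, the last given as its mouse counterpart KC in the study's methods), to IPFc (a cocktail of TNFα, TGF-β and TSLP with the chemokines CCL2 and IL-8 and the interleukins IL-1β, IL-4, IL-13 and IL-33) or to 2 ng/ml TGF-β (TGFb in the group names). Epcam microbeads then split each culture into Epcam+ cells (epithelial libraries) and Epcam- cells (fibroblast libraries), and both were sequenced as bulk RNA. The 4 mice gave 4 libraries per group, except 3 epithelial TGFb libraries (mice 2, 3 and 4) and 3 fibroblast vehicle libraries (mice 1, 3 and 4). The epithelial TGFb library of mouse 1 and the fibroblast vehicle library of mouse 2 were not analysed here. Values of a group are listed below in the order of the mice.

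The 30 libraries held 5113828 to 20317181 counted reads, and levels are given as CPM, read counts scaled to library size after TMM normalization. Beads do not separate the cells fully. Judged by the median of the epithelial markers that reached 50 CPM in the epithelial library of the same culture (12, or 11 under TGFb), epithelial RNA made up 15.2 to 28.1% of the fibroblast vehicle libraries, 37.4 to 57.6% of the EC libraries, 10.7 to 30.0% of the IPFc libraries and 0.808 to 3.52% of the TGFb libraries. Judged in the same way by 9 or 10 fibroblast markers, fibroblast RNA made up 3.98 to 9.48% of the epithelial vehicle libraries, 5.09 to 17.4% of the EC libraries, 4.38 to 14.8% of the IPFc libraries and 25.8 to 31.1% of the TGFb libraries. These shares, and the subtractions below that use them, take all marker RNA as coming from the other cell type. A subtraction takes the partner library's count (the other fraction of the same culture), scaled by the share, off each count. Where this would fall below 0, the count was set to 0. Whether a treatment changed the markers within a cell type was not tested. For fibroblast TGFb mouse 1 and epithelial vehicle mouse 2, whose partner library was lacking, the mean of the other mice stood in. All 12 epithelial markers reached a mean of 1 CPM in every epithelial group, and 11 of the 12 fibroblast markers did so in every fibroblast group, *Thy1* being the exception. Of 8 neutrophil markers in the files at most 1 reached a mean of 1 CPM in any group (*Retnlg* or *Camp*), with *Elane* at 0 in all epithelial libraries. Of 9 markers of other immune cells 2 did (*Cd68* and *Cd14*), joined by *Csf1r* in the epithelial TGFb libraries, and their summed level was 398 to 489 CPM in the epithelial EC libraries against 232 to 284 CPM in the epithelial vehicle libraries. In bulk RNA, fewer cells of a type and less RNA per cell cannot be told apart.

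The cytokines of EC act on epithelium through well-known routes. TNFα and IL-1β activate the transcription factor NF-κB, IL-6 activates STAT3 through gp130, and IL-8 or KC acts on the chemokine receptor CXCR2. TGF-β acts through Smad proteins and is a main driver of matrix production by fibroblasts. The 6 genes have different roles. *Vnn1* and *Vnn3* encode vanins, pantetheinases that split pantetheine into pantothenate (vitamin B5, the precursor of coenzyme A) and cysteamine. *Steap4* encodes a membrane metalloreductase that reduces iron and copper before uptake, and *Slc39a4* encodes ZIP4, a zinc importer of the plasma membrane that is best known from the intestine. *Tnip3* encodes ABIN-3, a relative of the A20-binding inhibitors of NF-κB. *Pdzrn3* encodes a RING-type ubiquitin ligase with PDZ domains, known from the neuromuscular junction and from Wnt signalling in vessels.

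The genes lie on 4 chromosomes (RefSeq, GRCm38.p6). *Pdzrn3* (ENSMUSG00000035357) spans chr6:101149607-101377897 on the minus strand, and *Tnip3* (ENSMUSG00000044162) lies on the same chromosome at chr6:65590398-65634040. *Vnn3* (ENSMUSG00000020010, chr10:23851462-23869843) and *Vnn1* (ENSMUSG00000037440, chr10:23894688-23905344) are neighbours, 24844 bases apart with 0 annotated genes between them. As paralogs they may share reads, and how the authors counted such reads is not given in the sources used here. *Pdzrn3* and *Slc39a4* each overlap a gene on the opposite strand (*Gm26911* and *Gm62519*), and whether the counting used strand is likewise not given. *Steap4* (ENSMUSG00000012428) spans chr5:7960472-7982213, and *Slc39a4* (ENSMUSG00000063354) spans chr15:76612383-76618506 on the minus strand.

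Upstream sequence was at hand for *Pdzrn3*, *Vnn3*, *Steap4* and *Tnip3*. The 250 bases before the annotated start are shown 5′ to 3′ on the gene's strand, because these genes stood higher in the same cultures and the cytokines of EC act through factors with known motifs. Capitals mark matches, on either strand, to an NF-κB motif (GGG and CC with any 5 bases between them), a STAT motif (TTCNNNGAA), a C/EBP motif (TTGCNNAA), an AP-1 motif (TGANTCA) or the core of the metal response element (TGCACNC), where N is any base.
Pdzrn3 (chr6:101377898-101378147, minus strand, GRCm38.p6, RefSeq): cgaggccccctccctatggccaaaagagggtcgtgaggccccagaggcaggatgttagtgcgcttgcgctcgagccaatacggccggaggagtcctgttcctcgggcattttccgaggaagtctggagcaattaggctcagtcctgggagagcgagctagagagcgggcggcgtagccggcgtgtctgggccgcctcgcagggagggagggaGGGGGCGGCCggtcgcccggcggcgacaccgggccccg
Vnn3 (chr10:23851212-23851461, plus strand, GRCm38.p6, RefSeq): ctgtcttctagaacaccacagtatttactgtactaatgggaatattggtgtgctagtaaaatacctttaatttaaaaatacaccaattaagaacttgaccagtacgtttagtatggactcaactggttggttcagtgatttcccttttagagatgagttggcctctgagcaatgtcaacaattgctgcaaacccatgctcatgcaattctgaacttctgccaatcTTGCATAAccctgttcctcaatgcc
Steap4 (chr5:7960222-7960471, plus strand, GRCm38.p6, RefSeq): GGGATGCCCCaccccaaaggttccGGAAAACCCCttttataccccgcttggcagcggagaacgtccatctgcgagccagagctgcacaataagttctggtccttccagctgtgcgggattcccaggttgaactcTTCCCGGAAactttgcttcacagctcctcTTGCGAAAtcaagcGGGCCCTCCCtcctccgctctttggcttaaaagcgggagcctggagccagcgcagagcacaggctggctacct
Tnip3 (chr6:65590148-65590397, plus strand, GRCm38.p6, RefSeq): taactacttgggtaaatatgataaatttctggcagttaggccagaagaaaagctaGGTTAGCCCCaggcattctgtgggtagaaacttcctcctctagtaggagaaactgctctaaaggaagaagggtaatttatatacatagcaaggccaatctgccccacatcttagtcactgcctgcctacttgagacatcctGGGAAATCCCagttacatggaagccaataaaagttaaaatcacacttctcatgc
The *Steap4* sequence held 3 NF-κB matches, 1 STAT match and 1 C/EBP match. The *Tnip3* sequence held 2 NF-κB matches, one of them from base -54 to base -45 counted from the start. The *Pdzrn3* sequence held 1 NF-κB match, from base -38 to base -29, and the *Vnn3* sequence held 1 C/EBP match, from base -25 to base -18. AP-1 and metal response element letters were not found in these windows, and no matches overlapped each other. Among 32851 promoters of the same length in the table, 45.8% held the NF-κB letters, 7.02% the STAT letters, 6.75% the AP-1 letters, 9.56% the C/EBP letters and 10.4% the metal response letters, so an NF-κB match of this form is common. A match describes the letters only.

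**Figure D1:**
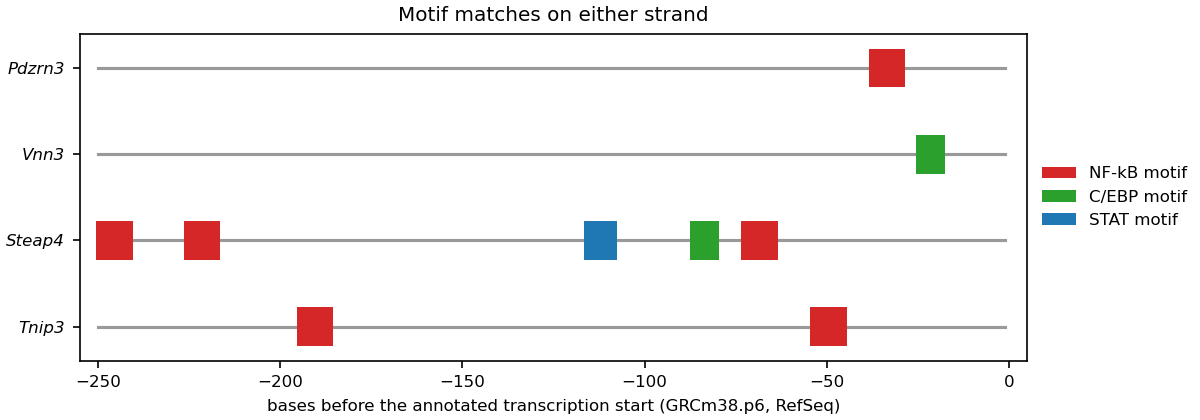
Position of motif matches (coloured boxes) in the 250 bases before the annotated start of 4 genes, with the distance from the start in bases on the x axis. *Steap4* holds 5 matches, *Tnip3* 2, and *Pdzrn3* and *Vnn3* 1 each.

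Both vanins stood higher under EC than with vehicle, from different starting levels. *Vnn3* was low in the epithelial vehicle libraries, at 3.69, 2.59, 3.08 and 3.89 CPM. It stood at 61.2, 57.8, 36.3 and 47.9 CPM in the epithelial EC libraries, 14.8-fold higher on average within a mouse. *Vnn1* was at 40.7, 36.2, 37.5 and 57.4 CPM with vehicle. All 4 epithelial EC libraries lay above all vehicle libraries for both genes. *Vnn1* reached 115, 92.9, 112 and 127 CPM under EC, 2.63-fold higher on average within a mouse. The rise ranged from 11.4 to 21.5-fold for *Vnn3* and from 2.22 to 2.99-fold for *Vnn1* over the 4 mice. Neither vanin was high under the other treatments. Under IPFc, the epithelial libraries held 4.85, 3.79, 3.36 and 2.28 CPM of *Vnn3* and 29.0, 26.8, 31.7 and 33.8 CPM of *Vnn1*. Under TGFb, they held 1.37, 1.07 and 0.338 CPM of *Vnn3* and 14.6, 17.3 and 19.5 CPM of *Vnn1*, below every epithelial vehicle library.

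The fibroblast libraries showed the same order of treatments for the vanins at lower levels. *Vnn3* was at 0.678, 0.365 and 1.07 CPM with vehicle and at 21.1, 16.6, 10.4 and 15.025 CPM under EC. Under IPFc it was at 0.282, 0.719, 0.903 and 1.08 CPM. The 4 fibroblast TGFb libraries held 2 *Vnn3* reads in all, 1 each in mice 2 and 4. *Vnn1* was at 6.02, 6.94 and 7.76 CPM with vehicle and 28.2, 38.2, 35.8 and 54.1 CPM under EC. It was at 3.88, 4.03, 4.64 and 6.71 CPM under IPFc and at 1.10, 1.81, 0.685 and 0.607 CPM under TGFb. The EC libraries did not overlap the other fibroblast libraries for either vanin. The share of epithelial RNA was also highest in the EC libraries and lowest in the TGFb libraries, and the fold changes with that share subtracted are given with each comparison below.

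*Steap4*, the metalloreductase, was low with vehicle in both fractions and lower in the epithelial one. The epithelial vehicle libraries held 3.08, 2.83, 2.67 and 2.20 CPM and the fibroblast vehicle libraries 6.85, 5.99 and 5.68 CPM, without overlap. Under EC both fractions held more, 30.8, 33.2, 20.02 and 19.6 CPM in epithelial and 20.5, 29.0, 19.7 and 16.8 CPM in fibroblast libraries. Under EC the fractions overlapped. The rise over vehicle was 7.26 to 11.4-fold in the 4 epithelial pairs and 2.92 to 3.25-fold in the 3 fibroblast pairs. Under IPFc the levels were 5.33, 6.46, 6.37 and 3.42 CPM in epithelial and 11.6, 13.2, 6.38 and 6.94 CPM in fibroblast libraries. Under TGFb they were 2.64, 2.76 and 2.48 CPM in epithelial and 0.313, 0.335, 0.0620 and 0.303 CPM in fibroblast libraries, the lowest of all 8 groups.

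*Slc39a4*, the zinc importer, had the highest level of the 6 genes in the epithelial vehicle and EC libraries. It was at 179, 159, 195 and 157 CPM in the epithelial vehicle libraries and at 387, 411, 447 and 402 CPM in the EC libraries, a rise of 2.17 to 2.58-fold within a mouse. IPFc libraries held 149, 145, 160.2 and 154 CPM and TGFb libraries 118, 117 and 111 CPM. The epithelial EC libraries lay apart from all others, and the TGFb libraries lay below all vehicle and IPFc libraries. In fibroblast libraries *Slc39a4* was at 30.9, 28.8 and 51.2 CPM with vehicle and 139, 157, 177 and 252 CPM under EC. It was at 17.7, 26.1, 33.6 and 47.8 CPM under IPFc and 2.03, 5.02, 2.61 and 5.76 CPM under TGFb. The EC libraries were the highest and the TGFb libraries the lowest of this fraction, with no overlap with the vehicle libraries.

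*Tnip3*, the ABIN relative, was also well expressed without a cocktail. It was at 117, 105, 129 and 132 CPM in the epithelial vehicle libraries and at 244, 226, 310.3 and 337 CPM in the EC libraries, 2.08 to 2.55-fold higher within a mouse. The epithelial IPFc libraries held 109, 86.1, 168 and 139 CPM and the TGFb libraries 117, 142 and 144 CPM. Both groups overlapped the vehicle libraries. In fibroblast libraries *Tnip3* was at 23.9, 19.6 and 23.2 CPM with vehicle and 113, 108, 114 and 135 CPM under EC. It was at 20.4, 25.9, 24.4 and 40.6 CPM under IPFc and 3.68, 4.08, 0.996 and 3.34 CPM under TGFb. Again the EC libraries were highest and the TGFb libraries lowest of their fraction.

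*Pdzrn3*, the ubiquitin ligase, followed a pattern of its own. In epithelial vehicle libraries it was at 4.51, 5.02, 3.65 and 1.95 CPM and under EC at 74.6, 75.1, 55.3 and 39.0 CPM, 14.7 to 19.1-fold higher within a mouse. The epithelial IPFc libraries held 13.5, 8.94, 4.80 and 4.15 CPM and the TGFb libraries 33.7, 28.6 and 34.1 CPM. The vehicle and IPFc libraries overlapped, and the EC and TGFb libraries lay above both. In fibroblast libraries it was at 22.7, 23.2 and 28.6 CPM with vehicle and 21.5, 47.2, 42.9 and 36.1 CPM under EC. It was at 43.8, 38.6, 48.0 and 36.4 CPM under IPFc and 104, 89.5, 109.5 and 102 CPM under TGFb. In this fraction the EC libraries overlapped the vehicle libraries, the lowest of them being that of mouse 1, which is also the library with the fewest reads (5113828). The TGFb libraries held the highest *Pdzrn3* levels of all 8 groups.

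**Figure D2:**
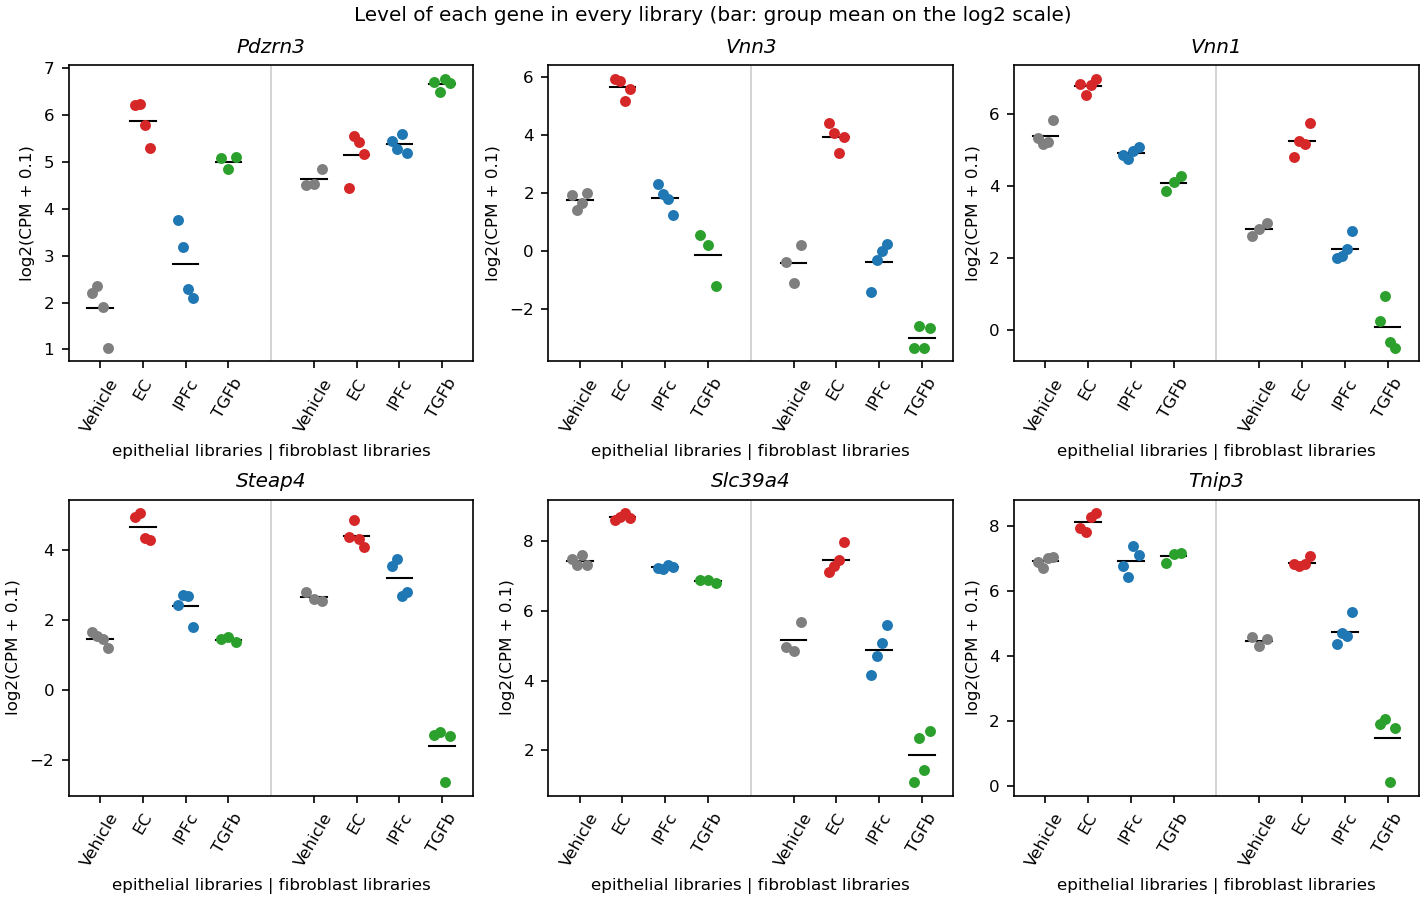
Level of each gene in every library, as log2(CPM + 0.1) on the y axis of each panel, for the 4 epithelial groups (left) and the 4 fibroblast groups (right). Points are libraries in the order of the mice and bars are group means on the log2 scale. On the epithelial side, EC libraries are highest for every gene, and on the fibroblast side *Pdzrn3* is highest under TGFb, where the other 5 genes are lowest.

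In the contrast that chose them, the fitted log2 fold changes of EC over vehicle in epithelial libraries were 4.01 ± 0.13 for *Pdzrn3*, 3.90 ± 0.15 for *Vnn3*, 3.22 ± 0.16 for *Steap4*, 1.39 ± 0.10 for *Vnn1*, 1.25 ± 0.086 for *Slc39a4* and 1.19 ± 0.089 for *Tnip3* (each ± SE). Every EC library lay above every vehicle library for 6 of the 6 genes, which holds for 2.98% of all genes in that comparison. In fibroblast libraries the values were 4.45 ± 0.33 for *Vnn3*, 2.50 ± 0.22 for *Vnn1*, 2.47 ± 0.20 for *Tnip3*, 2.39 ± 0.19 for *Slc39a4*, 1.64 ± 0.24 for *Steap4* and 0.42 ± 0.20 for *Pdzrn3*. There the EC libraries lay above the vehicle libraries for 5 of the 6, all but *Pdzrn3*, against 6.41% of all genes. Epithelial RNA made up 37.4 to 57.6% of the fibroblast EC libraries, and with it subtracted the value was -6.00 for *Vnn1*, -1.29 for *Pdzrn3*, 1.12 for *Steap4*, 1.88 for *Slc39a4* and 1.73 for *Tnip3*, while *Vnn3* could not be fitted. The subtraction set *Vnn1* to 0 in some EC and vehicle libraries, and *Pdzrn3*, *Slc39a4* and *Tnip3* in some EC libraries. Their subtracted values rest in part on that floor, so the -6.00 does not measure a fall. In that fit 0 of 17362 genes passed. Nothing is read from how many of the 6 genes had higher EC libraries, since they were selected on their rise under EC.

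Per kilobase of exon length (GENCODE vM39, the exons of all transcripts of a gene merged) the 6 genes can be set beside each other. This length was 11078 bases for *Tnip3* and 2323 bases for *Vnn3*, and which transcripts the cells used was not tested. With vehicle, epithelial libraries held 41.5 CPM per kilobase of *Slc39a4*, 12.4 of *Vnn1*, 10.9 of *Tnip3*, 1.43 of *Vnn3*, 0.750 of *Steap4* and 0.471 of *Pdzrn3* (group means). Under EC the means per kilobase were 98.9 for *Slc39a4*, 32.4 for *Vnn1*, 25.2 for *Tnip3*, 21.9 for *Vnn3*, 7.60 for *Pdzrn3* and 7.21 for *Steap4*. The 3 genes that were lowest with vehicle were those with the largest rises, and *Vnn3* came to lie near *Tnip3* on this scale. These levels belong to the contrast that chose the genes, and the vehicle level is also the base of each rise. Nothing is read from this order.

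IPFc against TGFb compares groups that had no part in choosing the genes. In epithelial libraries 5 of the 6 genes passed the test (edgeR's quasi-likelihood test with the mouse as a block, Benjamini-Hochberg adjusted p under 0.05), in a comparison where 37.0% of all genes did. *Pdzrn3* was lower under IPFc, by a log2 fold change of -2.46 ± 0.19 (adjusted p = 2.05e-09). *Vnn3* was higher under IPFc by 1.77 ± 0.40 (adjusted p = 0.00128), *Vnn1* by 0.84 ± 0.13 (adjusted p = 3.05e-05), *Steap4* by 1.03 ± 0.29 (adjusted p = 0.00816) and *Slc39a4* by 0.40 ± 0.089 (adjusted p = 0.00115). Each of these directions held in 3 of the 3 mice with both libraries. *Tnip3* did not pass, at -0.09 with a 95% interval of -0.31 to 0.14 (adjusted p = 0.591). The epithelial TGFb libraries held 25.8 to 31.1% fibroblast RNA and the IPFc libraries 4.38 to 14.8%. With the fibroblast share subtracted (the partner library's counts, scaled by that share, taken off each count), *Slc39a4* was at 0.00 (adjusted p = 0.99) and *Steap4* at 0.36 (adjusted p = 0.56), while *Tnip3* passed as lower under IPFc, at -0.50 (adjusted p = 0.00234). The *Steap4* call was also lost with DESeq2 (adjusted p = 0.073), without mouse 2 (adjusted p = 0.0515) and without mouse 3 (adjusted p = 0.0673).

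In fibroblast libraries 6 of the 6 genes passed the same test, against 29.0% of all genes. *Pdzrn3* was again lower under IPFc (-1.36 ± 0.074, adjusted p = 8.7e-11). *Steap4* was higher by 5.12 ± 0.29 (adjusted p = 1.76e-10), the largest difference among the 6. *Tnip3* was higher by 3.16 ± 0.22 (adjusted p = 1.72e-09), *Slc39a4* by 2.95 ± 0.16 (adjusted p = 7.92e-11) and *Vnn1* by 2.15 ± 0.33 (adjusted p = 5.68e-05). *Vnn3* passed as well (adjusted p = 0.00148), on 43 reads in the IPFc group and 2 in the TGFb group, a ratio of 22.7 in CPM with an exact 95% counting interval of 5.92 to 194. Each direction held in 4 of 4 mice. Epithelial RNA was 10.7 to 30.0% of the IPFc libraries and 0.808 to 3.52% of the TGFb libraries. With that share subtracted *Vnn1* turned to -1.03 (adjusted p = 0.465) and the *Vnn3* call was lost (adjusted p = 0.0642). The subtraction set *Vnn1* to 0 in some IPFc libraries, so its value rests in part on that floor.

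The effect of IPFc against TGFb differed between the fractions for 6 of the 6 genes, by a test of the interaction in which 29.6% of all genes passed. The median difference over all genes, epithelial minus fibroblast, was -0.18 on the log2 scale. It was -4.14 ± 0.42 for *Steap4* (adjusted p = 8.27e-06), -3.32 ± 0.29 for *Tnip3* (adjusted p = 2.65e-06), -2.63 ± 0.20 for *Slc39a4* (adjusted p = 8.07e-07) and -1.38 ± 0.35 for *Vnn1* (adjusted p = 0.00821). For *Pdzrn3*, lower under IPFc in both fractions, it was -1.15 ± 0.21 (adjusted p = 0.000846), a call that was lost without the block by mouse (adjusted p = 0.138). For *Vnn3* it was -2.47 ± 0.87 (adjusted p = 0.0455), which was lost without the block (adjusted p = 0.0866), with DESeq2 (adjusted p = 0.102) and without any one of the 4 mice (adjusted p = 0.0759 to 0.25). The *Vnn1* difference was lost without mouse 4 (adjusted p = 0.0619). The shares of the other fraction's RNA differ between the 4 groups of this test as given above. They were subtracted within each fraction, and not in the test of this difference.

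**Figure D3:**
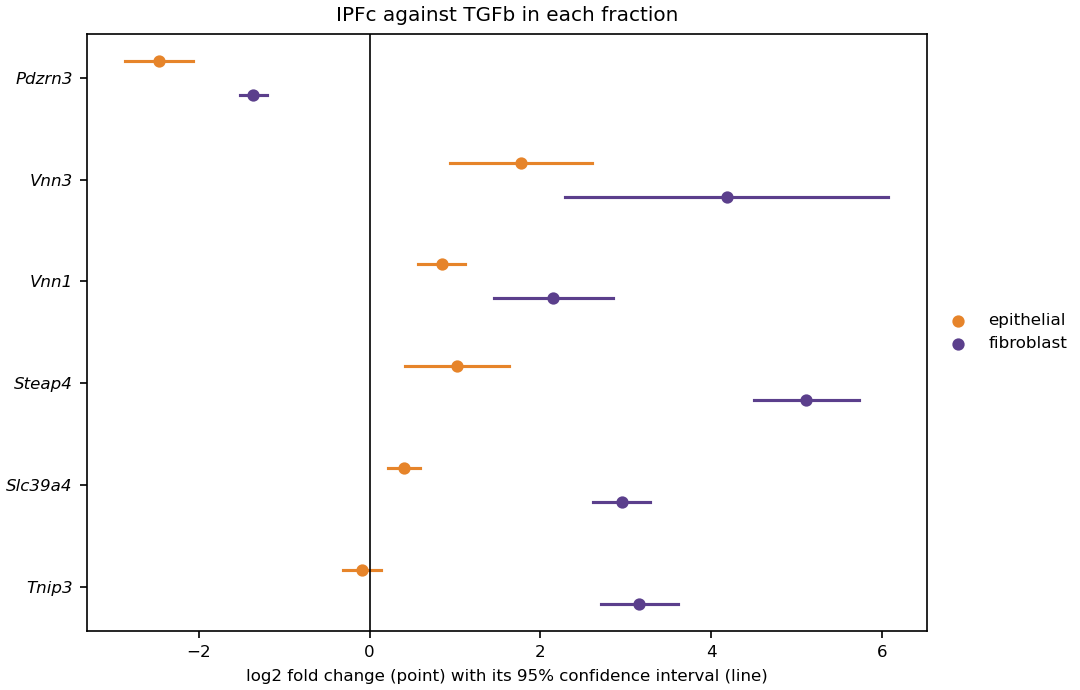
Fitted log2 fold change of IPFc over TGFb (x axis; points, with 95% intervals as lines) for each gene in epithelial and in fibroblast libraries. *Pdzrn3* lies below 0 in both fractions, and the other 5 genes lie at 2.15 or more in fibroblast libraries and between -0.09 and 1.77 in epithelial libraries.

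Under IPFc the 2 fractions of the same cultures differed in 6 of the 6 genes, in a comparison where 53.4% of all genes passed. *Vnn1* was higher in epithelial libraries by 2.63 ± 0.18 on the log2 scale (adjusted p = 9.22e-07), *Slc39a4* by 2.32 ± 0.20 (adjusted p = 2.82e-06), *Vnn3* by 2.20 ± 0.46 (adjusted p = 0.0018) and *Tnip3* by 2.13 ± 0.18 (adjusted p = 3.14e-06). *Pdzrn3* (-2.57 ± 0.26, adjusted p = 9.51e-06) and *Steap4* (-0.84 ± 0.24, adjusted p = 0.0127) were higher in fibroblast libraries. The *Steap4* call was lost without mouse 1 (adjusted p = 0.0525) or mouse 2 (adjusted p = 0.0529). Under TGFb 6 of 6 passed again, against 46.1% of all genes. *Tnip3* was higher in epithelial libraries by 5.66 ± 0.26 (adjusted p = 2.47e-17), *Slc39a4* by 4.75 ± 0.21 (adjusted p = 1.05e-17), *Vnn1* by 4.11 ± 0.33 (adjusted p = 1.09e-11) and *Steap4* by 3.52 ± 0.64 (adjusted p = 3.63e-05). *Pdzrn3* was lower there (-1.62 ± 0.16, adjusted p = 4.7e-10). *Vnn3*, with 2 reads in the fibroblast group, passed as higher in epithelial libraries (adjusted p = 0.00296), a call that was lost without mouse 3 (adjusted p = 0.0588). *Steap4* was thus higher in the fibroblast fraction under IPFc and in the epithelial fraction under TGFb.

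In fibroblast libraries, 4 of the genes mostly stood at a fraction of their epithelial level that lay within the wide range of the epithelial markers. Each level was taken as a percent of the level in the epithelial library of the same culture, and set beside the lowest and the highest of the same percents for the epithelial markers, over 14 cultures. For *Slc39a4* this percent lay inside the range of the markers in 14 of 14 cultures, for *Tnip3* in 12, for *Vnn1* in 11 and for *Vnn3* in 10. In the EC cultures, for example, it was 35.9 to 62.8% for *Slc39a4*, 36.8 to 47.8% for *Tnip3*, 24.5 to 42.5% for *Vnn1* and 28.7 to 34.5% for *Vnn3*, against a marker median of 35.8 to 52.3%. For *Vnn3* it was below the marker median in 4 of 4 EC cultures. *Steap4* lay inside that range in 6 of 14 cultures and *Pdzrn3* in 4. *Steap4* in vehicle fibroblast libraries was at 223 to 258% of the epithelial level and under IPFc at 100.2 to 217%, above every marker in 7 of 7 cultures. Under TGFb it was at 2.26 to 12.7%, inside the marker range in 2 of 3 cultures. *Pdzrn3* in fibroblast libraries was at 502 to 1472% of the epithelial level with vehicle, 324 to 1001% under IPFc and 265 to 383% under TGFb, above every marker in 10 of 10 cultures. Under EC these 2 genes lay inside the marker range in 4 of 4 cultures, with *Steap4* at 66.6 to 98.4% and *Pdzrn3* at 28.9 to 92.7%.

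The reverse comparison bears on *Pdzrn3* and *Steap4* in epithelial libraries. The range of the fibroblast markers was wide here too, for example 6.36 to 48.6% in the vehicle culture of mouse 1. With vehicle, IPFc and TGFb, the epithelial *Pdzrn3* level as a percent of the fibroblast level lay inside the range of the fibroblast markers in 10 of 10 cultures. In each of these cultures it was above the marker median, at 6.79 to 19.9% against 4.40 to 9.93% with vehicle. Under TGFb it was 26.1 to 37.7% and the marker median was 24.02 to 28.7%. Under EC it was 108 to 347% and the marker median was 5.31 to 17.7%, and the gene lay above every marker in 4 of 4 cultures. Epithelial *Steap4* under EC was at 102 to 150% of the fibroblast level, also above every marker in 4 of 4 cultures. Under TGFb it was at 788 to 4429%, above every marker in 3 of 3 cultures, and it lay inside the marker range in 3 of 3 vehicle and 3 of 4 IPFc cultures. With vehicle it was at 38.7 to 44.9%, above the marker median in 3 of 3 cultures. The 4 other genes lay above every fibroblast marker in all cultures in which both libraries held reads.

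**Figure D4:**
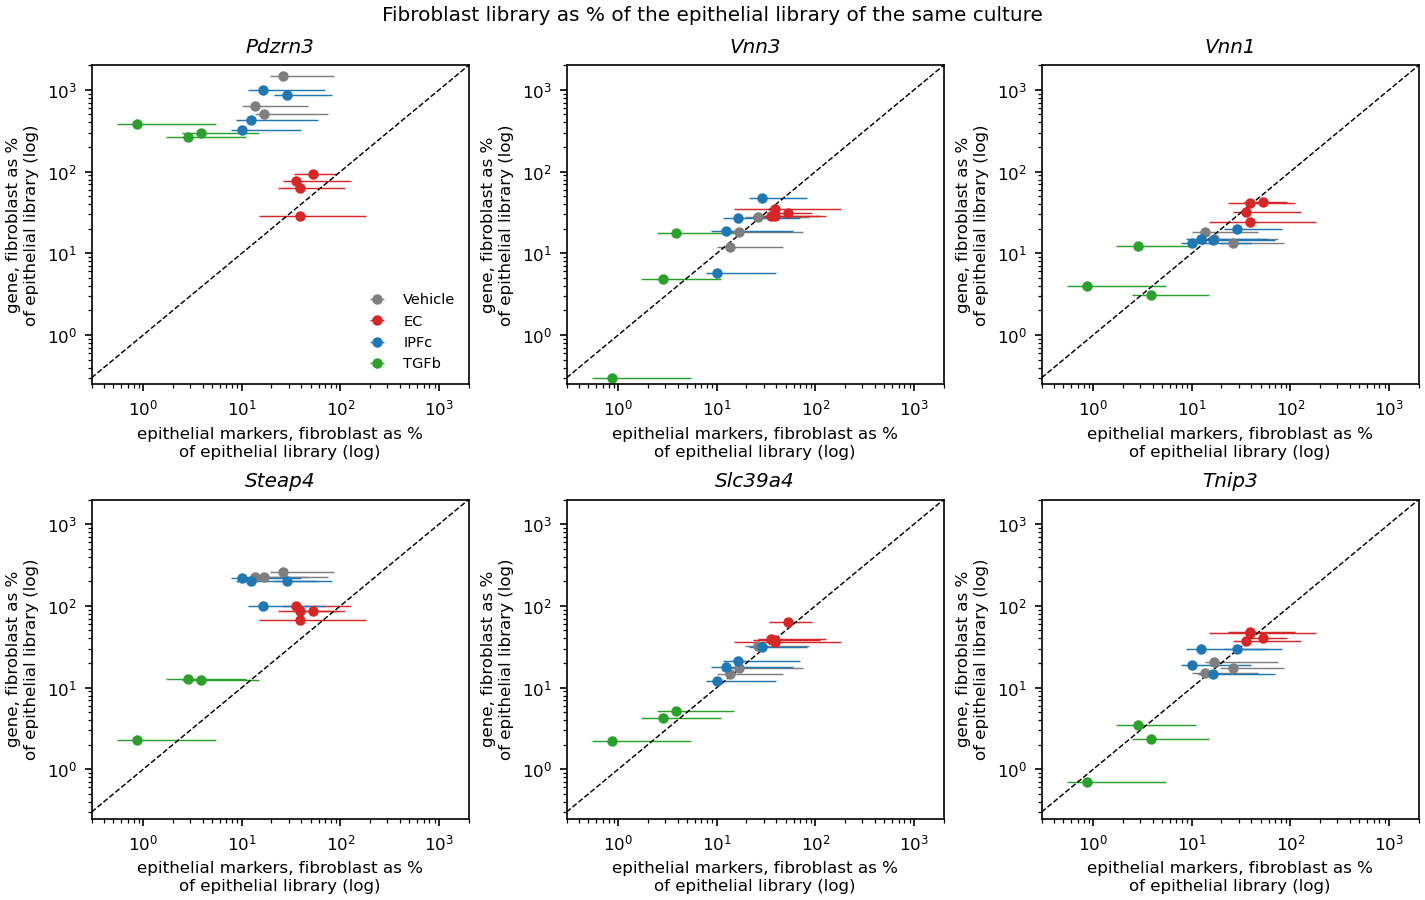
For each culture, the level in the fibroblast library as a percent of that in the epithelial library, for the gene (y axis, log scale) against the median of the epithelial markers (x axis, log scale; horizontal lines give the range of the markers). The dashed line marks equal percents. *Slc39a4* lies within the range of the markers in all 14 cultures, *Pdzrn3* lies above the line in all but 1, and the *Vnn3* value of 0 under TGFb is drawn at the lower edge.

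IPFc and TGFb were also compared with vehicle. These comparisons use the vehicle libraries of the contrast that chose the genes, and share them with each other, so the values stand side by side and their likeness is not read as a result. For the same reason, their fold changes and adjusted p-values are not independent of how the genes were chosen. In epithelial IPFc libraries 3 of the 6 genes passed, where 5.94% of all genes did. *Steap4* (0.97 ± 0.23, adjusted p = 0.0068) and *Pdzrn3* (0.96 ± 0.21, adjusted p = 0.00378) were higher and *Vnn1* (-0.50 ± 0.11, adjusted p = 0.0023) was lower, each in 4 of 4 mice. *Slc39a4* (-0.20, 95% interval -0.36 to -0.04, adjusted p = 0.184), *Vnn3* (0.08, -0.45 to 0.60) and *Tnip3* (0.00, -0.19 to 0.19) did not pass. Without the block by mouse the 3 calls were lost (adjusted p = 0.0727 for *Steap4*, 0.279 for *Pdzrn3* and 0.121 for *Vnn1*), as they were with the fibroblast share subtracted (0.151, 0.796 and 0.0694). Without mouse 1 the *Pdzrn3* call was lost (adjusted p = 0.136) and without mouse 4 the *Vnn1* call (adjusted p = 0.0991). In fibroblast IPFc libraries *Pdzrn3* passed alone (0.78 ± 0.18, adjusted p = 0.00329), where 1.27% of all genes did, and that call was lost without the block (adjusted p = 0.0691), without mouse 1 (adjusted p = 0.279) and without mouse 3 (adjusted p = 0.159).

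Under TGFb *Pdzrn3* was higher than with vehicle in both fractions, and the vanins and *Slc39a4* were lower in both. In epithelial libraries *Pdzrn3* was higher under TGFb than with vehicle by 3.22 ± 0.19 (adjusted p = 1.92e-35), and *Vnn3* (-1.66 ± 0.42, adjusted p = 0.00043), *Vnn1* (-1.28 ± 0.13, adjusted p = 4.81e-16) and *Slc39a4* (-0.51 ± 0.10, adjusted p = 4.89e-06) were lower, where 41.7% of all genes passed. *Tnip3* (0.18, 95% interval -0.02 to 0.38) and *Steap4* (0.07, -0.63 to 0.77) did not pass. Fibroblast RNA was 25.8 to 31.1% of these TGFb libraries and 3.98 to 9.48% of the vehicle libraries. With it subtracted *Pdzrn3* was higher by 1.86 (adjusted p = 0.0325), *Vnn1* still passed as lower, *Vnn3* (-1.34, adjusted p = 0.125) and *Slc39a4* (-0.09, adjusted p = 0.636) no longer did, and *Tnip3* passed as higher (0.60, adjusted p = 0.00171). In fibroblast libraries *Pdzrn3* was higher under TGFb by 2.17 ± 0.18 (adjusted p = 3.36e-33) and the other 5 genes were lower, where 19.9% of all genes passed. The log2 fold change was -4.68 ± 0.49 for *Steap4* (adjusted p = 2.23e-20), -3.39 ± 0.22 for *Slc39a4* (adjusted p = 7.25e-50), -3.07 ± 0.24 for *Tnip3* (adjusted p = 1.39e-34) and -3.06 ± 0.38 for *Vnn1* (adjusted p = 1.32e-14). For *Vnn3* (adjusted p = 0.00532), 31 vehicle reads stood against 2 TGFb reads, a ratio of 22.5 in CPM with an exact 95% counting interval of 5.72 to 194, and the call was lost without mouse 4 (adjusted p = 0.119). With epithelial RNA subtracted, *Pdzrn3* and *Steap4* still passed, and *Slc39a4* (adjusted p = 0.0548), *Tnip3* (adjusted p = 0.107) and *Vnn1* (0.33, adjusted p = 0.947) did not. The subtraction set *Vnn1* to 0 in some vehicle libraries. In the fibroblast comparisons with vehicle edgeR gave a gene's own scatter between mice no weight, and in epithelial TGFb against vehicle little, so these adjusted p-values are optimistic. In the other tests, scatter shared over genes also outweighed a gene's own, by 7.99 to 26.7 against 2 to 5 degrees of freedom. Some fits that left out a mouse gave a gene's own scatter no weight either. How far this moves the adjusted p-values was not tested.

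**Figure D5:**
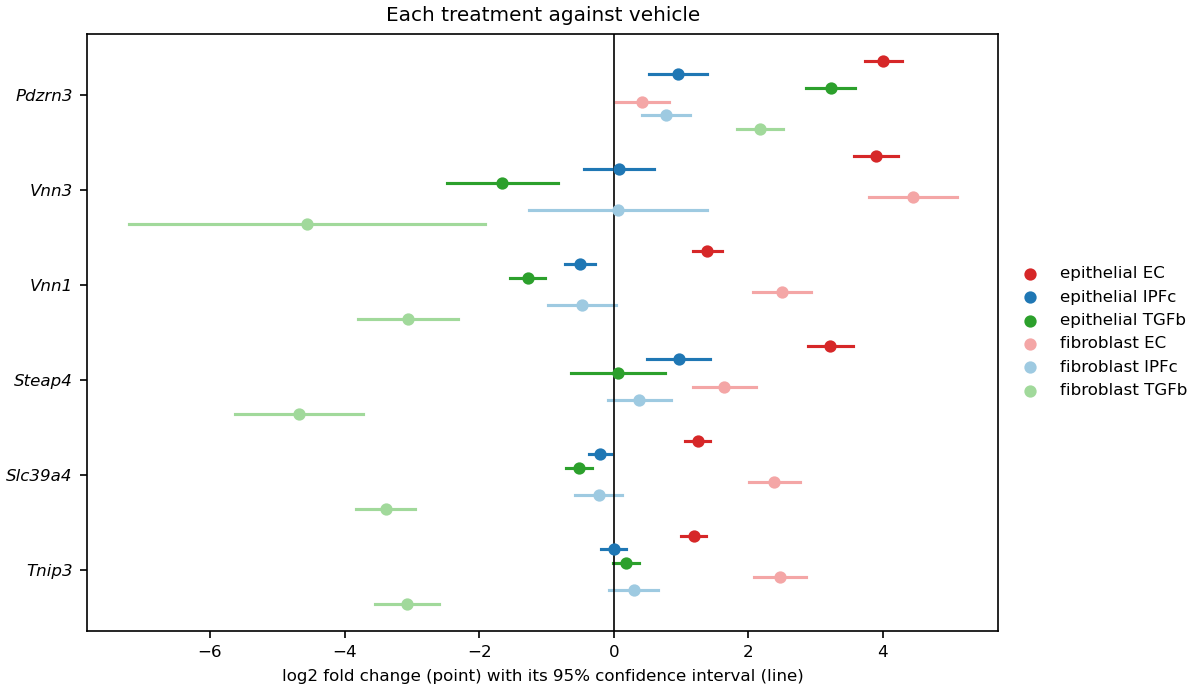
Fitted log2 fold change against vehicle (x axis; points, with 95% intervals as lines) under each treatment in each fraction. The EC values belong to the contrast the genes were chosen on. Under TGFb *Pdzrn3* lies above 0 in both fractions, and the other 5 genes lie at -3.06 or below in fibroblast libraries.

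Over the 8 groups, *Pdzrn3* ranked fibroblast TGFb first (101 ± 8.49 CPM, SD, n = 4), then epithelial EC (60.98 ± 17.3, n = 4), and the next 4 groups overlapped their neighbours down to fibroblast vehicle (24.8 ± 3.32, n = 3). Epithelial IPFc and vehicle came last and overlapped. *Vnn3* ranked epithelial EC (50.8 ± 11.2, n = 4) above fibroblast EC (15.8 ± 4.43, n = 4), and both above the rest. *Vnn1* (112 ± 14.3), *Slc39a4* (412 ± 25.4) and *Tnip3* (279 ± 53.1; each n = 4) also ranked epithelial EC first without overlap with the second group. For *Tnip3* the next 4 groups, 3 epithelial ones and fibroblast EC, overlapped one after the other. For *Steap4* the 2 EC groups overlapped at the top (25.9 ± 7.12 and 21.5 ± 5.27), and fibroblast TGFb (0.253 ± 0.128, n = 4) lay apart at the bottom.

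The partners of the vanins are the genes of coenzyme A and thiol metabolism. Of 19 such genes tested in epithelial EC against vehicle, 0 passed edgeR's test, 4 were under an unadjusted p of 0.05, and DESeq2 called 1, in a comparison where 4.67% of all genes passed (median log2 fold change -0.07, against -0.01 over all genes). Between epithelial IPFc and TGFb libraries, 7 of 18 were higher under IPFc and 1 was lower, where 37.0% of all genes passed, and DESeq2 called 6. They included *Gclc* (0.87, adjusted p = 2.98e-08) and *Gclm* (0.37, adjusted p = 0.00225), the subunits of the enzyme that starts glutathione synthesis, *Gss* (0.85, adjusted p = 6e-07), which completes it, and *Slc5a6* (0.71, adjusted p = 0.00188), which carries pantothenate into cells. The list median was 0.24, against 0.00 over all genes.

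Among 28 genes of iron and copper handling, 6 were higher and 1 was lower in epithelial EC against vehicle, where 4.67% of all genes passed. *Lcn2*, whose protein binds iron-loaded siderophores, rose from 10.4 ± 1.59 to 232 ± 44.3 CPM (n = 4 each; log2 fold change 4.45, adjusted p = 1.97e-12). *Cp*, the copper-carrying ferroxidase ceruloplasmin, rose by 1.45 (adjusted p = 7.29e-09), and *Ltf*, lactotransferrin, by 1.63 (adjusted p = 1.16e-08). *Atp7b*, a copper exporter, fell by 1.03 (adjusted p = 3.74e-05). The list median was 0.05, against -0.01 over all genes. Comparing IPFc with TGFb in epithelial libraries, 10 of 28 were higher under IPFc and 7 lower, against 37.0% of all genes. *Ltf* (3.28, adjusted p = 2.42e-13), transferrin *Trf* (2.27, adjusted p = 2.28e-14) and *Atp7b* (1.83, adjusted p = 7.51e-10) were higher under IPFc. The iron exporter *Slc40a1* was lower (-2.70, adjusted p = 5.03e-10), with 45.0 ± 15.9 CPM in the epithelial TGFb libraries. The fibroblast vehicle libraries held 92.3 ± 14.6 CPM of *Slc40a1* against 5.39 ± 1.34 CPM in the epithelial vehicle libraries, and the part of fibroblast RNA in its TGFb level was not tested.

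Zinc transporters and metallothioneins other than *Slc39a4* were also counted. Of 24 tested, 0 passed in epithelial EC against vehicle with edgeR and 0 with DESeq2, and 7 were under an unadjusted p of 0.05. In that comparison 4.67% of all genes passed edgeR's test, so few calls are looked for in a list of this size. Of 23 zinc genes tested in epithelial IPFc against TGFb, 7 were higher and 3 lower, led by the zinc and manganese importer *Slc39a8* (1.41, adjusted p = 3.03e-09). DESeq2 called 4 of the 23, and 37.0% of all genes passed edgeR's test. *Slc39a13* was lower (-0.63, adjusted p = 0.00122), and *Slc39a11* (0.38, adjusted p = 0.00545) and the zinc exporter *Slc30a5* (0.32, adjusted p = 0.011) were higher. The list medians were 0.06 under EC and 0.13 for IPFc against TGFb.

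Of 11 relatives and partners of *Pdzrn3*, 0 passed in epithelial EC against vehicle by edgeR and 0 by DESeq2, where 4.67% of all genes passed edgeR's test. Under an unadjusted p of 0.05 were 2 of them (list median -0.15). Under IPFc against TGFb, 4 of 11 in epithelial libraries were lower and 2 higher (DESeq2 called 4), against 37.0% of all genes. The receptor *Ephb2* (-1.65, adjusted p = 3.88e-09), *Numbl* (-1.07, adjusted p = 1.2e-05) and the ligand *Efnb2* (-0.44, adjusted p = 0.000614) were lower under IPFc, and the ligase *Lnx1* was higher (0.73, adjusted p = 0.0072). The fibroblast vehicle libraries held 45.5 ± 4.35 CPM of *Ephb2* and 42.2 ± 6.59 CPM of *Numbl*, against 21.5 ± 5.14 and 13.6 ± 0.355 CPM in the epithelial vehicle libraries, and the part of fibroblast RNA in their TGFb levels was not tested. The list median was -0.12. Of 27 genes of the A20 and NF-κB feedback group around *Tnip3*, 3 were higher and 1 lower in epithelial EC against vehicle, where 4.67% of all genes passed. *Nfkbiz*, an inducible NF-κB cofactor (0.78, adjusted p = 0.00816), *Nfkb1* (0.42, adjusted p = 0.00666) and the ubiquitin ligase *Birc3* (0.51, adjusted p = 0.0154) were higher, and *Ikbkg* was lower (-0.43, adjusted p = 0.0218). In epithelial IPFc against TGFb 5 were higher and 6 lower (DESeq2 called 7), near the 37.0% of all genes, with *Tnfaip3*, which encodes A20, lower under IPFc (-1.28, adjusted p = 4.13e-08). *Ikbkg* was lower (-0.76, adjusted p = 2.25e-06), and *Traf2* (0.68, adjusted p = 7.31e-05) and *Nfkb1* (0.38, adjusted p = 0.00207) were higher. The list medians were 0.01 and -0.13.

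Of 17 receptors for the cocktails' factors, 2 were higher in epithelial EC against vehicle and 0 lower, where 4.67% of all genes passed. *Il13ra2*, a decoy receptor of IL-13, rose from 1.26 ± 0.605 to 16.5 ± 5.76 CPM (n = 4 each; log2 fold change 3.72, adjusted p = 3.09e-08), and *Il4ra* rose by 0.46 (adjusted p = 0.00394). The list median was 0.27. In epithelial IPFc against TGFb 5 of 16 were higher and 5 lower (DESeq2 called 8), against 37.0% of all genes. The IL-33 receptor *Il1rl1* (-2.36, adjusted p = 3.08e-10) and *Tgfbr1* (-0.53, adjusted p = 0.000106) were lower under IPFc, and *Il4ra* (1.01, adjusted p = 7.59e-09) and the TNF receptor *Tnfrsf1b* (0.80, adjusted p = 7.68e-06) were higher.

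Genes whose levels ran most like each of the 6 were sought among 12884 genes with a mean of at least 1 CPM, by Pearson's r of log2 CPM over the 15 epithelial libraries. The libraries share 4 treatments and 4 mice, so r is a description. *Noxo1*, an organiser of the NADPH oxidase NOX1, was among the first 3 for *Vnn3* (r = 0.979), *Slc39a4* (r = 0.966) and *Steap4* (r = 0.957). *Lcn2* was among them for *Steap4* (r = 0.969) and *Vnn3* (r = 0.964), and *Cp* came first for *Steap4* (r = 0.971). *Vnn3* itself was among the first 3 for *Slc39a4* (r = 0.962) and *Slc39a4* for *Vnn1* (r = 0.95). *Vnn3* was also near the antiprotease *Slpi* (r = 0.962), *Vnn1* near the peptidoglycan-binding *Pglyrp1* and the glycolytic *Pgk1* (r = 0.955 each), and *Slc39a4* near *Rilpl2* (r = 0.955). *Tnip3* was nearest to *Dock11* (r = 0.940), *Pdk1* (r = 0.925) and the neutrophil chemokine *Cxcl5* (r = 0.910), and *Pdzrn3* to *Neurl3* (r = 0.905), the NADPH oxidase subunit *Cyba* (r = 0.903) and *Exoc3l4* (r = 0.899). After the mean of each treatment was taken out, r fell to 0.592 or less for the genes named with *Vnn3*, *Vnn1*, *Steap4* and *Slc39a4*, was 0.613 to 0.781 for those named with *Tnip3*, and was -0.09 (*Neurl3*), 0.619 (*Cyba*) and 0.671 (*Exoc3l4*) for those named with *Pdzrn3*. Between pairs of the 6 genes r ran from 0.313 (*Pdzrn3* and *Vnn1*) to 0.962 (*Vnn3* and *Slc39a4*).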

How the data were processed

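Counts of reads per gene (55487 Ensembl genes) from directional RNA libraries sequenced on a NovaSeq were deposited by the authors, one table per library, not normalized. Reads had been trimmed with Trimmomatic 0.30. The study's methods name GRCm38.p6 and the labels GRCm39, and the aligner and counter are not given in the sources used here. Coordinates and promoter sequences come from RefSeq (GRCm38.p6).

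Genes with a mean count of at least 1 in the compared libraries were fitted with edgeR 4.0.16 (R 4.3.3; TMM, quasi-likelihood, two-sided), with the mouse as a block, and were called at a Benjamini-Hochberg adjusted p under 0.05. The difference between fractions is an interaction term. The mouse of each library was taken from the replicate number in its label. Libraries of the same mouse deviated together (mean r 0.286 in epithelial and 0.3 in fibroblast libraries, against -0.09 and -0.10 between mice). DESeq2 1.42.0 was an alternative. Only the fit of epithelial IPFc against TGFb was also run on simulated counts. These were drawn without differences between mice, so the run does not test the block or the other comparisons. Replicates of every group differed by more than sampling noise, with a chi-square per degree of freedom of 5.76 to 83.2 between replicates.

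The 6 genes and all gene lists were chosen with earlier results of these data known, so a list is described by counts, its median and single named genes, without a test of the list. In the lists of related genes, the named genes were the 4 with the smallest adjusted p among those passing the test, per list and comparison, and likeness named the first 3 genes by Pearson's r (log2 CPM, prior count 2). Markers entered the share of the other fraction's RNA where they reached 50 CPM in the partner library. Intervals on reads cover counting error only. The alternatives were DESeq2, DESeq2 size factors, no filter or a mean of 10, no block, robust estimation, all treatments in one model, subtraction of the other fraction, and leaving out each mouse.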

Additional observations from a re-analysis of the deposited data

Results flagged for a closer look

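The fibroblast TGFb library of mouse 3 held 0.062 CPM of *Steap4*, against 0.303 to 0.335 CPM in the other 3 libraries of that group. It rests on 1 read, against 4 or 5 reads in the others. Its gap to the nearest library was 0.885 of the range of the group. It was the only value to stand apart in this way among 36 sets of 4 libraries (6 genes in 6 groups), and chance gives about 1 in 20.

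The log2 fold change of IPFc over TGFb differed between epithelial and fibroblast libraries, by the interaction test of edgeR, for all 6 genes, where 29.6% of all genes passed. The difference, epithelial minus fibroblast, was -4.142 for *Steap4* (adjusted p = 8.27e-06), -3.320 for *Tnip3* (adjusted p = 2.65e-06), -2.627 for *Slc39a4* (adjusted p = 8.07e-07), -2.470 for *Vnn3* (adjusted p = 0.0455), -1.375 for *Vnn1* (adjusted p = 0.00821) and -1.147 for *Pdzrn3* (adjusted p = 0.000846). The median over all genes was -0.18. The *Vnn3* call was lost with DESeq2 (adjusted p = 0.102), without the block by mouse (adjusted p = 0.0866) and without any one mouse. Without the block the *Pdzrn3* call was lost (adjusted p = 0.138), and without mouse 4 the *Vnn1* call (adjusted p = 0.0619). The share of epithelial RNA in fibroblast libraries was 10.7 to 30.0% under IPFc and 0.808 to 3.52% under TGFb, and its part in these differences was not tested beyond the subtraction within each fraction.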

How the results depend on the processing

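Of 608 values of tested fold changes under the alternatives, 556 kept their direction and their side of the threshold, 35 lost the call, 2 gained it and 15 changed sign. Within a fraction, leaving out mouse 1 where epithelial TGFb was compared, or mouse 2 where fibroblast vehicle was, took away no pair. Those values could hardly move, and they are counted in the total. The mouse block bore on the comparisons with vehicle. In epithelial IPFc against vehicle 3 of the 6 genes passed with the replicate block and 0 without it, and 0 with the other fraction subtracted. In fibroblast IPFc against vehicle 1 passed, and 0 did without the replicate block, with all treatments in one model or with the subtraction, and 0 to 1 when each mouse was left out (0 without mouse 1 and without mouse 3). The subtraction left 2 of 6 in fibroblast TGFb against vehicle and 3 of 5 EC fold changes over 1 in fibroblast libraries. Without the block, *Tnip3* in epithelial IPFc against vehicle was at 0.034, against -0.001 with it, and the *Pdzrn3* and *Vnn3* differences between fractions lost their call, at -0.749 and -2.323. The block changed no other direction among the 6 genes.

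The other sign changes were of values near 0 or of values under the subtraction. *Tnip3* in epithelial IPFc against vehicle was at 0.004 with a mean count of at least 10, 0.008 with all treatments in one model, 0.071 with the subtraction and -0.119 to 0.103 when each mouse was left out. The subtraction turned *Vnn1* to -1.027 in fibroblast IPFc against TGFb and to 0.325 in fibroblast TGFb against vehicle, *Slc39a4* to 0.578 in fibroblast IPFc against vehicle, and the fibroblast EC values of *Pdzrn3* to -1.289 and of *Vnn1* to -5.995. In each of these *Vnn1* fits, counts of some libraries had been set to 0. Leaving out each mouse gave -0.250 to 0.053 for *Tnip3* in epithelial IPFc against TGFb, -0.061 to 0.334 for *Vnn3* in epithelial IPFc against vehicle, -0.484 to 0.525 for *Vnn3* and -0.426 to 0.025 for *Slc39a4* in fibroblast IPFc against vehicle, and -0.026 to 0.148 for *Steap4* in epithelial TGFb against vehicle. The causes were not tested.

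Counts over all genes moved by more than 1.5 times in some comparisons. Fibroblast IPFc against TGFb called 5197 genes, 3221 without the block and 3141 in one model, and the difference between fractions 5446, and 3499 without mouse 3. Epithelial IPFc against vehicle called 1065, 274 without the block and 378 with the subtraction. Fibroblast IPFc against vehicle called 229, with 25 (subtraction) to 147 (without mouse 3) under 7 alternatives. TGFb against vehicle called 7674 in epithelial libraries, 4072 with the subtraction, and 3582 in fibroblast libraries, 1492 with the subtraction and 2052 without mouse 4. Epithelial EC against vehicle called 830, 308 without the block, 252 with the subtraction, and 531, 553 and 1522 without mice 3, 1 and 4. Fibroblast EC against vehicle called 1831, 49 without the block, 0 with the subtraction, 1165 with DESeq2, 1137 with a mean count of at least 10, 1009 without mouse 3 and 546 without mouse 4. *Vnn3* fell under a mean count of 10, or under the filter after subtraction, in 4 fibroblast comparisons or comparisons with fibroblast libraries, where it was not fitted. Its 2 reads under TGFb limit every value against that group. With the means of the 8 groups in place of the epithelial libraries, the first 3 most similar genes shared 1 with those named for *Vnn1* (*Pglyrp1*) and for *Steap4* (*Lcn2*), and 0 for the other 4.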

Other observations

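With the mean of each treatment taken out of the 15 epithelial libraries, the 6 genes fell into pairs that varied together and pairs that varied apart between mice. *Pdzrn3* and *Steap4* (r = 0.608) and *Vnn1* and *Tnip3* (r = 0.636) varied together, whereas *Pdzrn3* varied against *Tnip3* (r = -0.736) and *Vnn1* (r = -0.701), and *Steap4* against *Vnn1* (r = -0.584) and *Tnip3* (r = -0.529). The vanins, neighbours in the genome and alike over treatments (r = 0.928), had r = -0.292 between mice. These values are a description over libraries that share 4 mice, and with so few animals they carry no test. The fibroblast RNA share of the epithelial libraries also varied between mice, from 5.09 to 17.4% under EC and from 4.38 to 14.8% under IPFc. *Pdzrn3* and *Steap4* stood higher in fibroblast than in epithelial vehicle libraries. The part of that share in these correlations was not tested.

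*Cd14*, which encodes a co-receptor for bacterial lipopolysaccharide, was among the first 3 genes by likeness over the 8 group means for *Slc39a4* (r = 0.992) and *Vnn1* (r = 0.988). *Slc39a4* itself came first for *Tnip3* on this measure (r = 0.991).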
